A study of Mus musculus with 3 samples.

Results

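The interferon-γ-inducible GTPases followed here were 6 guanylate-binding protein genes (Gbp2, Gbp3, Gbp4, Gbp5, Gbp6 and Gbp7) and 4 immunity-related GTPase genes (Iigp1, Igtp, Irgm1 and Irgm2). These 10 genes of the 32285 listed were chosen by symbol, without use of their values, although earlier results of these data were known when the list was made. They were measured in lung endothelial cells (ECs) from 3 single-cell libraries, 1 per group. The question was how lung ECs change once tumor cells have arrived. All mice were wild-type C57BL/6. The control mice received PBS in the tail vein and were taken after 6 h, and the metastatic lungs were taken 6 h or 30 h after injection of 200000 B16-F10 cells in 100 µl of PBS. B16-F10 is a pigmented mouse skin melanoma line, and its cells carried a green tracker dye. Lungs were digested with collagenase, and cells positive for Pecam1 (CD31) and negative for Ptprc (CD45) were sorted, with labelled melanoma cells added to the 6 h library per its label. Cells of several mice were pooled in each library, and the labels give 2 mice for each treatment. A larger number stands in the published methods for the experiment with a 30 h group, to which these libraries belong. The control for both times was the PBS library of 6 h, as no PBS library of 30 h was used here, and library, time and treatment cannot be told apart.

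Guanylate-binding proteins (Gbps) and immunity-related GTPases (Irgs) are among the genes most strongly switched on by interferon-γ (IFN-γ), and many also respond to type I interferons. IFN-γ binds the receptor chains Ifngr1 and Ifngr2, the kinases Jak1 and Jak2 pass the signal on, and the induced factor Irf1 takes part in activating the GTPase genes. The proteins assemble on the vacuoles and membranes of intracellular pathogens, and Gbps also take part in inflammasome activation. Iigp1 and the other effector Irgs bind to pathogen vacuoles, while Igtp, Irgm1 and Irgm2 are regulatory Irgs that keep the effectors inactive on the cell's own membranes. ECs carry the IFN-γ receptor and can express these genes without being infected.

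In the GRCm38 annotation, which is the same assembly as mm10, all members are protein-coding genes. Gbp5, Gbp7, Gbp3 and Gbp2 follow each other on the plus strand of chromosome 3, at chr3:142493978-142522344, chr3:142530342-142550149, chr3:142560026-142573209 and chr3:142620602-142638008. Gbp4 (chr5:105115767-105139586) and Gbp6 (chr5:105270702-105293698) lie on the minus strand of chromosome 5. Irgm1 (chr11:48861968-48871683, minus strand), Igtp (chr11:58199556-58207591, plus strand) and Irgm2 (chr11:58199618-58222782, plus strand) lie on chromosome 11. Gbp4 overlaps Gbp8 and Gbp9 on the same strand, and Igtp overlaps Irgm2, so reads in shared stretches could be assigned to neither gene or to the wrong one. The same holds for stretches that are near-identical between paralogs of either family.

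Promoter sequences, from 250 bases before to 50 bases after the start, were matched for 7 of the 10 members in RefSeq (GRCm38.p6). They are shown because the known regulators of these genes bind short elements there. The interferon-stimulated response element (ISRE) was searched as 2 copies of GAAA with any 2 bases between them and the interferon-γ-activated site (GAS) as TTCNNNGAA, on both strands. All 7 promoters held the ISRE letters and 4 (Gbp5, Gbp7, Igtp and Irgm2) held the GAS letters, while over all genes with a promoter sequence 3.99% held the first and 9.55% the second. Of 8 other Gbp and Irg family genes with a promoter, 5 held the ISRE letters and 3 the GAS letters. The stretches around the ISRE match, with matches to either motif in capitals and written 5′ to 3′ on the strand of the gene, read:
Gbp2, chr3:142620594-142620623, plus strand: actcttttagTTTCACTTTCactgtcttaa
Gbp3, chr3:142559992-142560021, plus strand: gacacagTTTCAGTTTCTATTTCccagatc
Gbp5, chr3:142496759-142496788, plus strand: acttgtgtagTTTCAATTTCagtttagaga
Gbp7, chr3:142530273-142530302, plus strand: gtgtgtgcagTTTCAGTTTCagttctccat
Igtp, chr11:58199507-58199535, plus strand: ccatTTCTAGGAActGAAACTGAAAgctg
Irgm2, chr11:58214898-58214926, plus strand: ccatTTCCAGGAActGAAACTGAAAgctg
Irgm1, chr11:48871428-48871457, minus strand: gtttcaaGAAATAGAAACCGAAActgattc

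The 4 Gbp promoters carried the ISRE letters on the strand opposite to the gene, and the 3 Irg promoters on the strand of the gene. The match began 59 bases before the start in Gbp2, 53 in Gbp7 and 165 in Gbp5. Gbp3 and Irgm1 each held a pair of overlapping matches. Igtp and Irgm2 had a GAS match close before the ISRE match, and 58 of the 60 bases around the ISRE match were identical between them. The RefSeq starts of Gbp2, Gbp3, Gbp5, Irgm1 and Irgm2 lie inside the longer gene bounds given above. A match is a run of letters, and binding was not measured in these libraries.

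ECs were barcodes with 1000 to 5000 detected genes, under 20% mitochondrial UMIs and at least 2 UMIs of Pecam1 and Cdh5 together. A UMI is a tag that marks 1 captured RNA molecule. They numbered 11231 in controls, 10583 after 6 h and 9278 after 30 h, with 81485079 to 90853430 UMIs per library and a median of 7782 to 8676 UMIs per barcode. Pecam1 was detected in 97.9% to 98.5% and Cdh5 in 98.5% to 98.7% of them. Each pair of libraries shared 22 to 38 barcode sequences. Member UMIs came to 84674 in controls, 107900 after 6 h and 55178 after 30 h. Levels are given as counts per 1000000 UMIs (CPM) over all EC barcodes of a library. Each molecule gives 1 tag at its 3′ end, so CPM is not divided by gene length and levels of different genes are not ranked. Intervals are exact, at 95%, and cover counting error only. Each group is 1 library, so differences have no replicate check and were not tested.

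All 10 members were higher at 6 h than in controls, and at 30 h the Irg genes were below the control while 4 of the 6 Gbp genes were not. Summed over the Gbp members, the level was 395 CPM in controls (interval 391 to 400), 578 CPM after 6 h (573 to 583) and 370 CPM after 30 h (366 to 375). The Irg members summed to 537 CPM (532 to 541), 657 CPM (652 to 663) and 307 CPM (303 to 311) in the same order. The Gbp sum was thus 1.46-fold higher at 6 h and 0.94-fold the control at 30 h. The Irg sum was 1.23-fold higher at 6 h and 0.57-fold the control at 30 h.

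**Figure D1:**
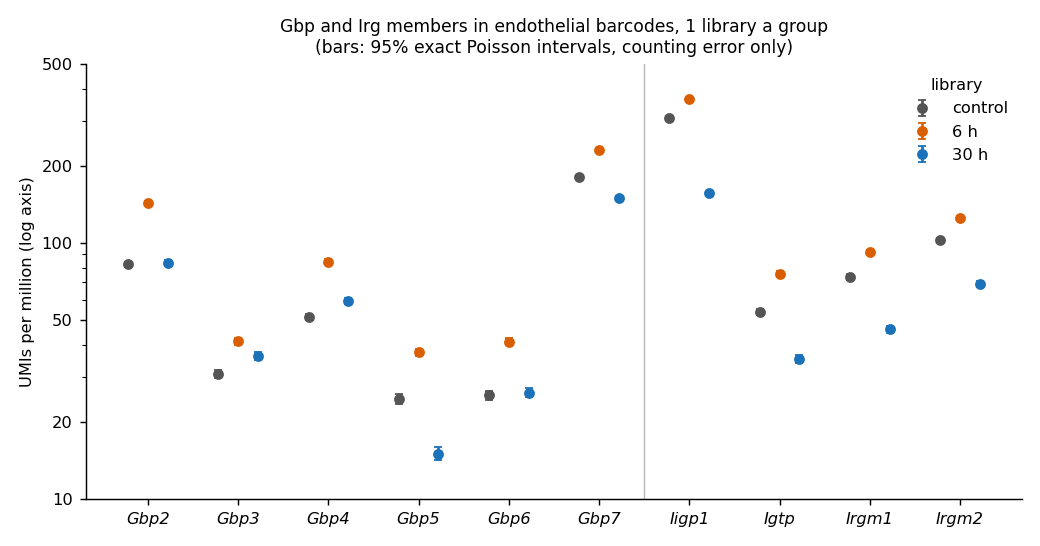
Level of each member (CPM over all EC barcodes, log axis) in the control (grey), 6 h (orange) and 30 h (blue) libraries, with 95% exact Poisson intervals. The 6 h library is the highest of the 3 for every member, and the 30 h library is the lowest for Gbp5, Gbp7 and the 4 Irg genes to the right of the line.

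Among the Gbp genes, Gbp2, whose protein is recruited to pathogen vacuoles, was measured at 82.5 CPM in controls, 143 CPM after 6 h and 83.6 CPM after 30 h. Its log2 ratio to the control was 0.79 (0.75 to 0.84) at 6 h, the highest of the members, and 0.02 (−0.03 to 0.07) at 30 h. The 30 h level was therefore within counting error of the control.

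Gbp3 was at 30.8 CPM in controls, 41.2 CPM 6 h after injection and 36.2 CPM 30 h after injection. It was the member that differed least between 30 h and 6 h, with a log2 ratio of −0.19 (−0.26 to −0.12). Gbp7, whose protein is linked to the oxidative defence of macrophages, had 181, 231 and 150 CPM in the same order. Its 30 h level was below the control, at a log2 ratio of −0.27 (−0.30 to −0.23).

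Gbp5, whose protein takes part in inflammasome assembly, was at 24.5 CPM in controls, 37.3 CPM after 6 h and 15.0 CPM after 30 h. Its log2 ratio to the control was 0.60 (0.53 to 0.68) at 6 h and −0.71 (−0.81 to −0.61) at 30 h. Between 6 h and 30 h Gbp5 had the largest difference of the members, with a log2 ratio of −1.31 (−1.41 to −1.22). Among the Gbp genes it was the one with a 30 h level as far below the control as the Irg genes.

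On chromosome 5, Gbp4 was at 51.2 CPM in controls, 84.4 CPM after 6 h and 59.3 CPM after 30 h, with log2 ratios to the control of 0.72 (0.67 to 0.77) and 0.21 (0.15 to 0.27). Gbp6 had 25.4, 41.1 and 26.0 CPM, with log2 ratios of 0.69 (0.62 to 0.77) and 0.03 (−0.05 to 0.12). Neither of these 2 members was below the control at 30 h.

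Iigp1, the effector Irg among the members, lies apart from the others on chromosome 18. It measured 307 CPM in controls, 365 CPM 6 h after injection and 157 CPM 30 h after injection. Its log2 ratio to the control was 0.25 (0.23 to 0.27) at 6 h, the lowest of the members, and −0.97 at 30 h (upper bound −0.94), the furthest below the control. Iigp1 thus had 0.51-fold the control level at 30 h.

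The regulatory Irgs lay between these extremes. Across control, 6 h and 30 h libraries, Igtp was at 53.8, 75.5 and 35.2 CPM, Irgm1 73.6, 91.6 and 45.9 CPM, and Irgm2 103, 125 and 68.8 CPM. Their log2 ratios to the control were 0.49 for Igtp, 0.32 for Irgm1 and 0.29 for Irgm2 at 6 h. At 30 h they were −0.61, −0.68 and −0.58. All 3 had the same order of libraries as Iigp1.

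A gene was counted as higher or lower at a log2 ratio of at least 0.25 in size, among the 10175 genes whose mean over the libraries was 5 CPM or more. All 10 members passed this level. At 6 h against control, 10 of 10 members were higher and 0 were lower, where 10.4% of all genes were higher and 11.1% lower. Iigp1 was just past this limit, and Irgm2 was next. At 30 h against control, 0 members were higher and 6 were lower (Gbp5, Gbp7 and the 4 Irg genes), where 17.2% of all genes were higher and 27.8% lower. At 30 h against 6 h, 0 members were higher and 9 were lower, Gbp3 being the other one, where 17.4% of all genes were higher and 25.2% lower. The median log2 ratio of the members was 0.45, −0.42 and −0.82 in these comparisons, and that of all genes −0.01, −0.07 and −0.07. The comparisons share libraries, so they are not independent of each other.

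The position of the genes gave a further description, read beside the 15 other family genes in the files. Of these, 10 had at least 5 CPM, and 6 of the 10 were higher and 0 lower at 6 h, beside 10.4% and 11.1% of all genes. At 30 h 3 were higher than the control (Gbp8, Gbp9 and Gm4070) and 3 lower (Ifi47, Tgtp2 and Gm4951), beside 17.2% and 27.8% of all genes. Gbp8 and Gbp9, which overlap Gbp4, had log2 ratios to the control of 0.41 and 0.36 at 6 h and of 0.56 and 0.69 at 30 h. They were thus higher at 30 h than at 6 h, unlike all members. Of the 4 Gbp genes of chromosome 5 that passed the level, none was lower than the control at 30 h by the limit, whereas on chromosome 3 Gbp5 and Gbp7 were. Gbp2 and Gbp6 were within counting error of the control, and under other settings their 30 h log2 ratios ran from −0.05 to 0.10 and from −0.01 to 0.13. Gbp7 was just past the limit, and with median-of-ratios factors its log2 ratio was −0.19.

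Ifi47, an Irg of chromosome 11, had log2 ratios of 0.42 at 6 h and −0.71 at 30 h, and Tgtp2, an effector Irg, of 0.51 and −0.31. Gm4951, which lies near Iigp1, had 0.07 and −0.92. All 4 Irg members and these 3 relatives were therefore below the control at 30 h, while Gm12185 and 9930111J21Rik2, both between Irgm1 and Ifi47 on chromosome 11, had 0.08 and 0.15.

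**Figure D2:**
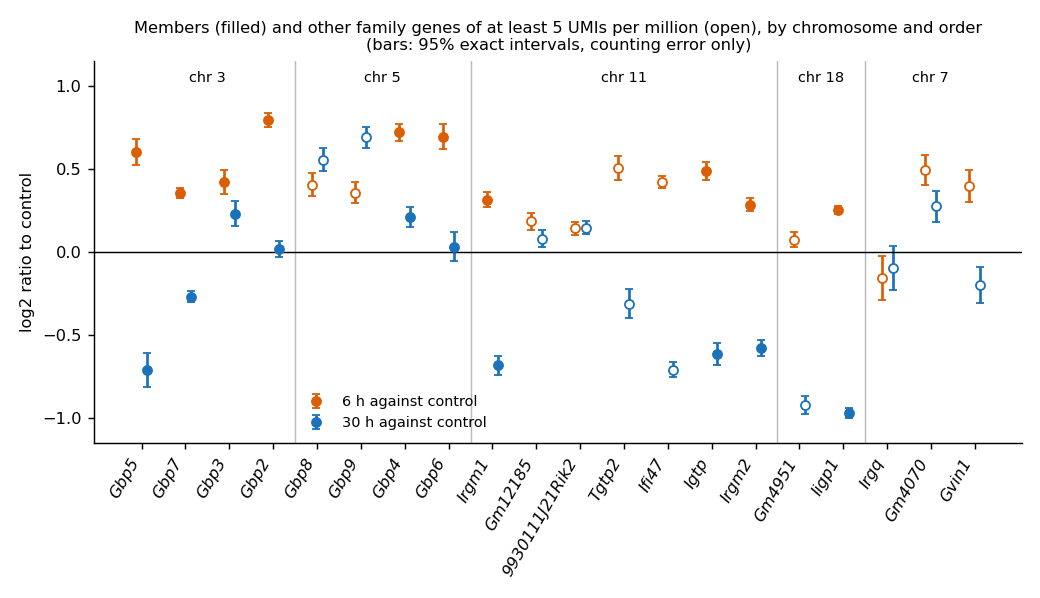
Log2 ratio to control (vertical axis) at 6 h (orange) and 30 h (blue) for the members (filled) and the other family genes of at least 5 CPM (open), ordered by chromosome and position, with 95% exact intervals. The 6 h ratios of the members run from 0.25 to 0.79, while the 30 h ratios run from −0.97 for Iigp1 to 0.69 for Gbp9.

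ECs were next gated into classes with markers that are not members, with limits set after the marker counts had been seen. General capillary cells (gCap) were gated on Gpihbp1, Plvap and other genes, aerocytes (aCap, the large capillary cells of gas exchange) on Ednrb, Apln and other genes, arteries on Gja5, Bmx and other genes, veins on Slc6a2 and Bst1, and lymphatic ECs (LEC) on Prox1, Mmrn1 and Reln. Among the 5 classes, Gpihbp1 was highest in gCap, Ednrb and Apln in aCap, Gja5 and Bmx in artery, Slc6a2 and Bst1 in vein, and Prox1, Mmrn1 and Reln in LEC, in each library. These genes set the gates, so this order was largely fixed in advance. Among markers outside the gates, in controls Ccl21a had 21668 CPM in LEC, Vwf 2599 CPM in vein and Mgp 826 CPM in artery. Each was highest in that class. For gCap and aCap every marker was part of the gate. Other markers went against the class they stand for. In controls the artery gene Fbln5 had 370.5 CPM in LEC and 107 CPM in artery, Eln had 405 CPM in vein and 312 CPM in artery, and the gCap gene Hilpda had 1011 CPM in artery and 887 CPM in gCap. The vein gene Nr2f2 had 1494 CPM in LEC and 468 CPM in vein, and the LEC gene Lyve1 had 2577 CPM in vein, 1881 CPM in artery and 1730 CPM in LEC. The gCap gene Plvap had 1155 to 1259 CPM in gCap, 1064 to 1107 CPM in artery and 1108 to 1178 CPM in vein, and at 30 h vein was above gCap. gCap held 6822, 6638 and 4821 barcodes in controls, after 6 h and after 30 h, aCap 1697, 1376 and 1746, vein 641, 468 and 451, artery 239, 204 and 361, and LEC 70, 53 and 57. The 5 classes do not cover all ECs. In the same order of libraries, 1726, 1822 and 1801 barcodes (15.4%, 17.2% and 19.4%) were left ungated. A further 36, 22 and 41 met more than 1 gate and were left out of the classes. In the artery class 120 to 167 barcodes per library lay within 1 UMI of the limit, so its values depend most on the gate. With a gate stricter by 1 UMI, the log2 ratio of the summed members to the control in artery went from 0.30 to 0.20 at 6 h and from −0.15 to −0.33 at 30 h.

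The summed members differed several-fold between classes. In the control library they reached 1426 CPM in vein (1397 to 1455), 1057 CPM in gCap (1048 to 1066), 841 CPM in artery (803 to 880), 465 CPM in aCap (455 to 475) and 347 CPM in LEC (301 to 398). At 6 h the order was the same, with 1807, 1364, 1036, 701 and 385 CPM. At 30 h vein had 1057 CPM, gCap and artery 758 CPM each with overlapping intervals, aCap 405 CPM and LEC 282 CPM. All other neighbours in this order had intervals that did not overlap.

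The difference between aCap and gCap was uneven over the members. In the control library Gbp5 was lower in aCap by a log2 ratio of −2.07 and Iigp1 by −1.92, but Igtp by only −0.26 and Irgm1 by −0.43. At 6 h Igtp was higher in aCap (89.3 CPM) than in gCap (73.7 CPM), and at 30 h the 2 classes had 34.1 and 34.0 CPM. Gbp5 was above gCap in vein, with log2 ratios of 1.53 in controls, 1.88 at 6 h and 1.40 at 30 h, and also in artery, with 0.89, 1.04 and 1.48. Its vein level was 73.0 CPM in controls, 135 CPM 6 h after injection and 38.4 CPM 30 h after injection, where artery had 40.7 CPM. Gbp7 was below gCap in vein, with log2 ratios of −0.23 in controls, −0.15 at 6 h and −0.13 at 30 h. Gbp6 was below gCap in vein at 30 h (−0.37), as was Irgm1 at 6 h (−0.16). In the control library Irgm1 had 73.4 CPM in vein and 80.6 CPM in gCap, within counting error of each other.

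**Figure D3:**
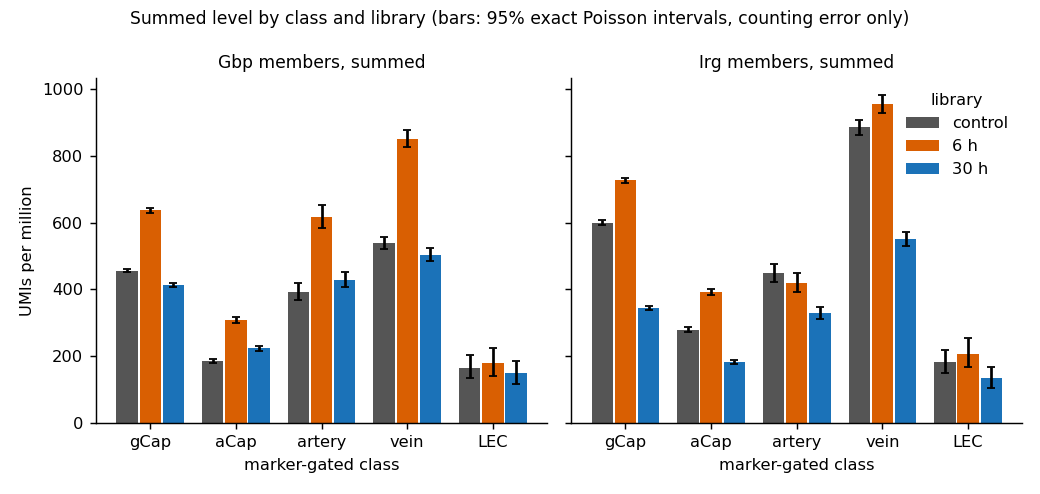
Summed CPM of the 6 Gbp members (left) and the 4 Irg members (right) in each marker-gated class, for the control (grey), 6 h (orange) and 30 h (blue) libraries, with 95% exact Poisson intervals. Vein is highest and LEC lowest in each library, but the control Gbp sums of LEC (166 CPM, 134 to 202) and aCap (186 CPM, 180 to 193) have overlapping intervals. The Irg sum of the artery class is 448 CPM in controls and 419 CPM at 6 h.

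Within the classes, at 6 h against control the members above 0 numbered 10 of 10 in gCap and in aCap. They numbered 9 of 10 in vein, 8 of 10 in artery and 6 of 10 in LEC. Higher by at least 0.25 were 9 members in gCap, 10 in aCap, 7 in artery, 7 in vein and 5 in LEC. Of all genes of the class, 12.3%, 9.81%, 23.3%, 16.3% and 31.4% were higher by as much. Lower by as much were 1 member in artery, 4 in LEC and 0 in the other classes, beside 11.1% to 33.7% of all genes. The median log2 ratio of the members was 0.38 in gCap, 0.66 in aCap, 0.44 in artery, 0.37 in vein and 0.28 in LEC. The medians of all genes of the class ran from −0.02 to 0.01. Gbp4 in aCap had the largest ratio of the 4 classes other than LEC, at 1.12 (0.96 to 1.28), against 0.60 (0.54 to 0.67) in gCap. Igtp had 0.93 in aCap and 0.38 in gCap. The difference between classes was not tested, since each holds the cells of the same 3 libraries.

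In LEC, the smallest class, the interval of each member held 0 against control at both times. Outside LEC the exceptions were Irg genes. In artery, Igtp had 42.4, 42.2 and 37.0 CPM in controls, after 6 h and after 30 h, the first 2 within counting error of each other. Iigp1 had 270 CPM in controls, 211 CPM at 6 h and 190.5 CPM at 30 h, and in vein Irgm2 had 181, 175 and 122 CPM, the first 2 within counting error of each other. At 30 h against control, 6 members in gCap, 6 in vein, 4 in aCap and 2 in artery were lower by at least 0.25, beside 27.4%, 29.5%, 31.5% and 33.9% of all genes of the class. Higher by at least 0.25 were Gbp2, Gbp3 and Gbp4 in aCap (0.34, 0.47 and 0.42) and in artery (0.47, 0.49 and 0.50), and Gbp2 in vein (0.25), beside 19.3%, 22.4% and 18.9% of all genes of the class. In gCap 0 members were, beside 17.9%. The Irg sum was below the control in gCap (−0.80), aCap (−0.61), artery (−0.45) and vein (−0.68), whereas the Gbp sum was −0.14, 0.26, 0.13 and −0.10. The sums thus lay apart in each of these 4 classes, but single genes overlapped. Gbp5 was at −0.80 in gCap and −0.93 in vein, below Igtp, Irgm1 and Irgm2 in both. In artery Igtp (−0.19) and Irgm2 (−0.24) were close to Gbp5 (−0.20) and Gbp7 (−0.19), each with an interval that held 0.

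The share of classes differed between libraries, with aCap at 15.1% of EC barcodes in controls, 13.0% at 6 h and 18.8% at 30 h. With class shares held equal, the summed members had log2 ratios to the control of 0.39 at 6 h and −0.41 at 30 h. Without that step the ratios were 0.41 and −0.46, so both moved past their counting interval. The alternative with equal class shares was added after the data had been seen.

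Per cell, each barcode was thinned to 2000 UMIs so that depth did not set the counts. Barcodes with fewer UMIs, 195, 197 and 111 in controls, after 6 h and after 30 h, were left out. At least 1 member UMI was found in 67.6% of barcodes in controls (66.7% to 68.4%), 74.5% after 6 h (73.6% to 75.3%) and 61.7% after 30 h (60.7% to 62.7%). Without thinning the shares were 91.2%, 93.6% and 90.3%. Among the few barcodes without Pecam1 and Cdh5 UMIs, the thinned shares were 34.7% (25.5% to 44.8%), 43.6% (33.7% to 53.8%) and 42.5% (32.0% to 53.6%), at median depths of 2761, 4062 and 3426 UMIs. Those barcodes may hold cells that express the genes, so they are no clean measure of free RNA. Shares in LEC, from 32.9% to 47.2%, were in the same range, and shares in gCap were 71.5%, 77.9% and 66.1%.

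Barcodes with at least 5 member UMIs made up 9.51% in controls, 15.1% at 6 h and 4.92% at 30 h. In vein these shares were 19.2%, 25.6% and 13.3%, and in aCap 2.36%, 5.45% and 1.55%. The members were unevenly spread over barcodes. The 10% of barcodes with the most member UMIs held 42.1%, 40.3% and 41.0% of them, and the variance of the count was 3.82, 4.57 and 2.88 times its mean, where counting alone gives a ratio near 1. The share of barcodes with no member UMI was 32.4%, 25.5% and 38.3%, while a Poisson count of the same mean gives 15.9%, 8.63% and 26.2%.

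**Figure D4:**
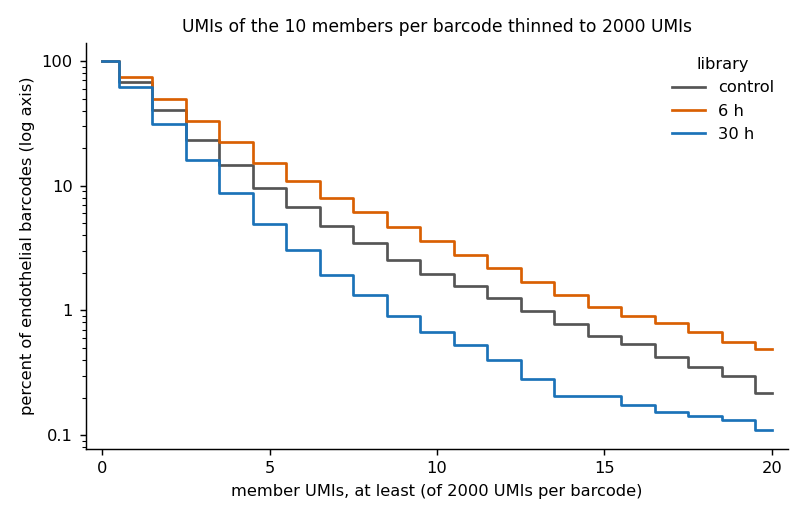
Percent of EC barcodes (log axis) with at least the given number of member UMIs among 2000 UMIs per barcode, for the control (grey), 6 h (orange) and 30 h (blue) libraries. The 6 h line lies above the control line and the 30 h line below it, with 15.1%, 9.51% and 4.92% of barcodes at 5 or more UMIs.

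Single members were found in fewer barcodes. Of thinned barcodes, Iigp1 was found in 3341 of 11036 in controls (30.3%), in 31.3% at 6 h and in 1648 of 9167 at 30 h. In the same order Gbp2 was found in 13.2%, 21.7% and 14.3%, and Gbp5 in 4.10%, 5.66% and 2.52%. For Iigp1 the shares of the control and 6 h libraries were close, while its level differed by 1.19-fold.

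ECs with 10 or more UMIs of type I interferon-stimulated genes, such as Bst2, Isg15 and Ifit1, were set apart from the rest. They made up 37.9% of ECs in controls, 41.5% at 6 h and 53.4% at 30 h, and were the deeper barcodes, with medians of 9609 to 10151 UMIs against 6648 to 6898. Their member level was 1229, 1662 and 784 CPM, against 664, 800.1 and 486 CPM in the other ECs. The split uses measured UMIs and is a description. Bst2 made up 469 of the list's 1351 CPM in controls and 725 of 1495 CPM at 30 h. Isg15 had 117 and 109 CPM and Ifit1 91.3 and 48.6 CPM in these 2 libraries. The larger share of such ECs at 30 h thus does not mean more Isg15 or Ifit1, and the part of Bst2 was not tested. Without the ECs of 10 or more type I interferon UMIs, the Gbp sum had a log2 ratio of 0.46 at 6 h against control and the Irg sum 0.10. Iigp1 then had a log2 ratio of −0.03 at 6 h.

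Across EC barcodes of 1 library, members were weakly correlated with each other, as Pearson's r of log(1 + UMIs per 10000). Over the 6 Irg pairs the median r was 0.27 in controls, 0.29 at 6 h and 0.23 at 30 h. Over the 15 Gbp pairs it was 0.20, 0.23 and 0.15, and over the 24 mixed pairs 0.19, 0.21 and 0.15. The highest was Iigp1 with Irgm2 at 6 h, at 0.36. Barcodes share their library, depth and free RNA, and r of the summed members with depth was 0.13 to 0.14, so these values describe the libraries and carry no test.

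The genes most like the summed members were ranked by the lowest r of the 3 libraries, among 10165 genes of at least 5 CPM that are not members. The first 8 were Ifi47 (0.33), Gm4951 (0.32), Isg15 (0.31), Ifit1 (0.31), Oasl2 (0.30), Ifitm3 (0.30), Rtp4 (0.29) and Ptprb (0.28). The 2 leading genes are Irgs, and 4 others (Isg15, Ifit1, Oasl2 and Rtp4) are on the type I interferon list. In gCap alone Ptprb, a phosphatase gene of endothelium, had r of at most 0.10, and Ifitm3 at most 0.21. The median gene had a lowest r of −0.002 and the gene at rank 100 of 0.15. Gbp8 and Gbp9, the relatives with higher 30 h levels, ranked 76 and 75.

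In the pathway that controls the members, IFN-γ itself was near absent from ECs. Ifng had 2 UMIs in controls, 0 at 6 h and 1 at 30 h. A count of 0 allows up to 3 UMIs, and T and NK cells, which make IFN-γ, were outside the sort. The receptor genes Ifngr1 (168, 182 and 173 CPM) and Ifngr2 (99.1, 113 and 98.5 CPM) had log2 ratios to the control of under 0.25 in size at both times. Of 20 ligand, receptor and signalling genes that passed the level, 11 were higher and 0 lower at 6 h, and 0 were higher and 10 lower at 30 h. Over all genes the shares were 10.4% higher and 11.1% lower at 6 h, and 17.2% and 27.8% at 30 h. The list medians were 0.30 and −0.26. The list also held genes that are not specific to IFN-γ, among them Stat2, Stat3, Irf7, Irf9, Usp18 and Socs3. Of these, Stat3 (0.49) and Socs3 (0.62) were among the 11 higher at 6 h. Stat2 (−0.62), Stat3 (−0.61), Socs3 (−0.50) and Usp18 (−0.33) were among the 10 lower at 30 h.

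Irf1, an induced factor that binds the ISRE, had 335, 415 and 230 CPM, with log2 ratios of 0.31 at 6 h and −0.54 at 30 h. Ciita, the activator of MHC class II genes, had 0.90 and 0.22, and Nlrc5, that of MHC class I genes, 0.55 and −0.42. The feedback inhibitor Socs1 had 14.5, 23.6 and 10.5 CPM, with 0.70 and −0.47. Ciita was thus not below the control at 30 h, while Irf1, Nlrc5 and Socs1 were. A link of these genes to single members was not tested.

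Other IFN-γ targets gave a further comparison. Of 11 in the files, 8 passed the level, of which 8 were higher at 6 h (median 0.46) and 4 were lower at 30 h (median −0.27). Of the other 3, Cxcl9, a chemokine gene, had 393 UMIs in controls and 188 after 6 h, with a log2 ratio of −1.01 (−1.26 to −0.75). Ido1 had 0.65 (0.41 to 0.90), from 233 and 352 UMIs. Ubd had 1.56 (0.57 to 2.64), but from only 12 and 34 UMIs. Serpina3g, a protease inhibitor gene, had 38.7, 65.6 and 10.5 CPM, and Icam1, a leukocyte adhesion gene, 260, 360 and 141 CPM. Of 11 MHC class I and processing genes 6 were higher and 0 lower at 6 h, and 5 were higher and 1 lower at 30 h, the latter being the peptide transporter gene Tap1 (−0.55). Of 6 MHC class II genes 1 was higher and 0 lower at 6 h, and 4 were higher and 1 lower at 30 h, the latter being the invariant chain gene Cd74 (227 CPM in controls, 145 CPM after 30 h, log2 ratio −0.64). Of 18 type I interferon-stimulated genes, 7 were higher and 2 lower at 6 h, with a median of 0.09, and 7 were higher and 7 lower at 30 h, with a median of −0.10. Of all genes, 10.4% were higher and 11.1% lower at 6 h, and 17.2% were higher and 27.8% lower at 30 h.

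Genes that work with the GTPases were also counted. Effector Irgs and Gbps are placed on pathogen vacuoles with the help of the Atg8 conjugation system. A list of 13 genes held this system and the linked ubiquitin pathway genes Sqstm1, Traf6 and Trim21. Of them 0 were higher and 1 lower at 6 h, where 10.4% of all genes were higher and 11.1% lower. At 30 h 1 was higher and 5 were lower, where 17.2% of all genes were higher and 27.8% lower. Sqstm1 (−0.82) and Trim21 (−0.41) were among the 5. Of the inflammasome genes, 3 of 8 passed the level. Casp4, the mouse caspase that senses bacterial lipopolysaccharide, had 33.6, 51.6 and 18.7 CPM, with log2 ratios of 0.62 and −0.85. Pycard had 1.08 and 0.71, and Gsdmd 0.07 and −0.06.

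**Figure D5:**
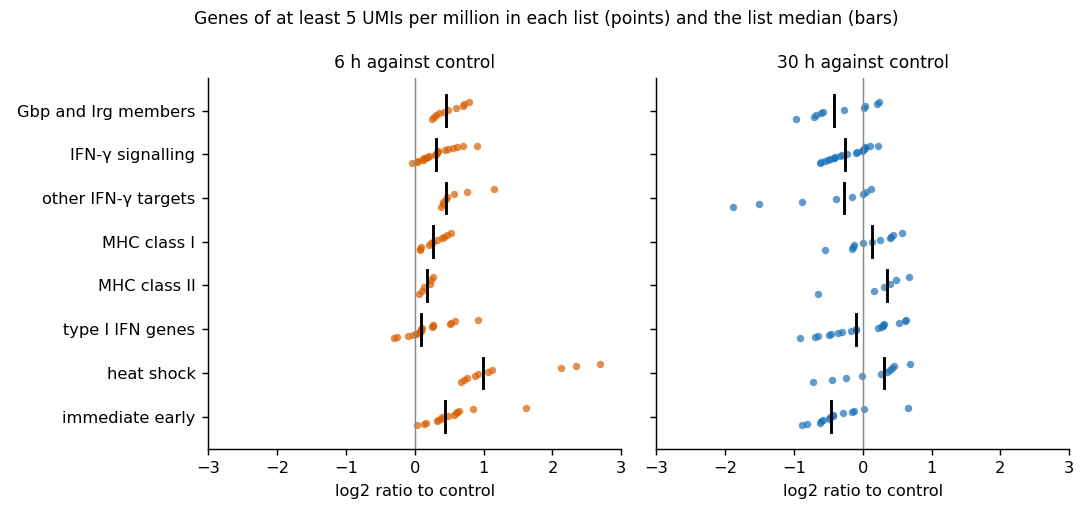
Log2 ratio to control (horizontal axis) of the genes of at least 5 CPM in the members and 7 other lists, at 6 h (left, orange) and 30 h (right, blue), with the list median as a black bar. The members and the other IFN-γ targets have medians of 0.45 and 0.46 at 6 h, and heat shock genes have 0.99.

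Other differences moved with the same libraries. Heat shock genes were higher at 6 h in 10 of 10 cases, with a median log2 ratio of 0.99, and 6 were higher and 2 lower at 30 h, with 0.31. Of 14 immediate early genes 11 were higher at 6 h, with a median of 0.44, and 10 were lower at 30 h, with −0.46, so they moved with the members at both times. Of 8 glucocorticoid-induced genes 5 were lower at 6 h, with a median of −0.68, and 3 were lower and 2 higher at 30 h, with −0.13. Over all genes, 10.4% were higher and 11.1% lower at 6 h, and 17.2% and 27.8% at 30 h. The part of these lists in the result was not tested. Without the barcodes that held an Hspa1a, Hspa1b or Hsph1 UMI, the summed members had a log2 ratio of 0.51 at 6 h and −0.45 at 30 h. This step removed unequal parts of the libraries and left 8511 barcodes in controls, 4403 after 6 h and 6881 after 30 h. Gene models with sequence like ribosomal RNA took 0.51% of UMIs in controls, 0.63% at 6 h and 2.13% at 30 h. With totals that leave out these, mitochondrial and ribosomal protein genes, the 30 h ratio was −0.41.

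Markers of other cell types were also counted in ECs. The 8 myeloid markers summed to 104, 158 and 70.8 CPM in controls, after 6 h and after 30 h, and the neutrophil genes S100a8 and S100a9 had 2.00 and 3.02 CPM in controls and 16.03 and 18.11 CPM at 6 h. The 8 T and NK markers summed to 2.18, 4.25 and 5.30 CPM, the 6 B cell markers to 13.3, 10.3 and 40.5 CPM, and the 6 general leukocyte markers to 17.2, 25.7 and 29.8 CPM. None of these markers was at 0 in any library. Without barcodes that held any of these leukocyte UMIs, the summed members had log2 ratios of 0.40 at 6 h and −0.51 at 30 h. The 5 red cell markers summed to 3249, 2119 and 829 CPM, and 96.7%, 85.9% and 14.95% of barcodes held 3 or more such UMIs. The 6 epithelial markers summed to 764, 567 and 349 CPM. Both kinds of RNA were also abundant in empty droplets. The 6 platelet markers summed to 205.5, 250.5 and 210.5 CPM, and the fibroblast and pericyte markers to between 23.4 and 36.2 CPM each. Without barcodes that held 3 or more UMIs of leukocyte, platelet, fibroblast, pericyte, epithelial or melanoma markers, the log2 ratios were 0.40 and −0.49. This step left out 52.8% of barcodes in controls, 28.7% after 6 h and 25.02% after 30 h. The 8 melanoma markers summed to 23.6, 40.8 and 20.7 CPM, with 1 of them at 0 in the control and 30 h libraries, and the part of melanoma RNA was not tested on its own.

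Free RNA was read from empty droplets with 10 to 100 UMIs. The members made up 577 CPM there in controls, 848 CPM at 6 h and 475 CPM at 30 h, below the EC level in each. From hemoglobin and other red cell genes and Sftpc, Sftpb and Scgb1a1 of the epithelium, free RNA was estimated at 5.01%, 5.61% and 6.79% of EC UMIs. With it subtracted, the log2 ratios of the summed members were 0.40 at 6 h and −0.46 at 30 h.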

How the data were processed

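Raw UMI counts were deposited for every gene in every barcode. Per the file headers, the authors' counts come from Cell Ranger 7.2.0 on mm10, without filtering or normalization, from droplet libraries of 3′ ends (10x Chromium). Seurat 4.4.0 is also named in the submitters' processing notes. An older release of Cell Ranger is given in the published methods, so the version is uncertain. Newer versions of the program count intronic reads by default and older ones do not, and the sources used here do not say if they were included. Reads that fit several genes are not counted by this program, which can lower near-identical paralogs. The depth was 124085451 to 140601123 UMIs per library.

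ECs were selected by the limits given above. Sums of UMIs over the barcodes of a library, or of a class in it, were scaled to 1000000 UMIs, with exact Poisson intervals for levels, exact conditional binomial intervals for ratios and Clopper-Pearson intervals for shares, at 95%. PCR duplicates were collapsed by UMI, and intervals cover counting error only. No doublet caller was run, but alternatives left out the barcodes of highest UMIs (0.8% per 1000 barcodes) or with RNA of other cell types. Classes required at least 10 UMIs of 7 genes for gCap or aCap, 3 UMIs of 5 genes for artery, 3 UMIs of 2 genes for vein and 5 UMIs of 3 genes for LEC. gCap was limited to at most 4 aCap UMIs and artery to at most 1 vein UMI.

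The genes, lists and comparisons were chosen with earlier results of these data known. All 10 members are also on the marker list of the interferon-high cells that the study chose on cells including these libraries, so that list is no independent evidence. Named beyond the members were family and pathway genes of at least 5 CPM or with a role for a member, and, of the 10 genes most like the members, the first 8. 1 further gene was left out and is not reported here. Calculations used Python 3.11.15, numpy 2.4.6, scipy 1.17.1 and pandas 2.3.3 and were tested on simulated counts. Gene positions are from GENCODE M21, in which 32235 of the 32285 gene IDs (99.8%) were found.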

Additional observations from a re-analysis of the deposited data

Results flagged for a closer look

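Some ratios had opposite signs in 2 classes of the same comparison, each with a counting interval that left out 0. These differences were not tested. At 6 h against control, Iigp1 had a log2 ratio of −0.36 in artery, against 0.25 in gCap, 0.35 in aCap and 0.10 in vein. The artery class held 204 to 361 barcodes per library, many of them near the limit of the gate. At 30 h against control, Gbp7 had 0.18 in aCap, against −0.31 in gCap and −0.21 in vein. Gbp6 had 0.20 in aCap and −0.52 in vein in the same comparison.

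In empty droplets, which entered the comparisons of ECs only where free RNA was subtracted, the summed members had a log2 ratio of 0.56 (0.38 to 0.73) at 6 h against control. The value is above that of the control library in the same kind of droplet, and rests on 589 and 506 UMIs.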

How the results depend on the processing

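No paired analysis was possible because each group is 1 library, and no library could be left out for the same reason. Over 14 alternatives, 3 of them added after the data had been seen, the median log2 ratio of the members stayed between 0.35 and 0.54 at 6 h against control, between −0.48 and −0.35 at 30 h against control and between −0.85 and −0.72 at 30 h against 6 h. Of 420 values of single members, 325 moved by less than their counting interval, 94 by more, and 1 whose interval had left out 0 changed sign: Iigp1 at 6 h against control, at −0.027 without barcodes of 10 or more type I interferon UMIs. Gbp2 and Gbp6 at 30 h, whose intervals held 0, also crossed it, at −0.05 for Gbp2 in gCap, and for Gbp6 in 3 of 14 alternatives, at −0.01 without other cell types and closer to 0 with free RNA subtracted and without leukocyte UMIs. Members higher at 6 h numbered 7 to 10, and members lower at 30 h against control 5 or 6.

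The summed members at 6 h against control moved past their interval to 0.39 with at least 300 genes, 0.37 in gCap, 0.27 without interferon-high barcodes, 0.39 with equal class shares and 0.51 without heat shock barcodes. At 30 h against control they moved to −0.48 with at least 300 genes and in gCap, −0.49 without other cell types, −0.41 with reduced totals, −0.39 with median-of-ratios factors, −0.41 with equal class shares and −0.51 without leukocyte UMIs. At 30 h against 6 h they moved to −0.89 without other cell types, −0.85 in gCap, −0.72 without interferon-high barcodes, −0.82 with reduced totals, −0.80 with median-of-ratios factors and with equal class shares, −0.91 without leukocyte UMIs and −0.96 without heat shock barcodes. Members higher at 30 h against control, 0 before, became 2 with reduced totals and with median-of-ratios factors, and 1 without interferon-high barcodes, with thinning, with free RNA subtracted, with equal class shares and without heat shock barcodes.

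Shares of barcodes with 5 member UMIs became 48.6%, 59.1% and 43.0% without thinning, and 1.97%, 3.60% and 0.68% at a limit of 10 UMIs, in the control, 6 h and 30 h libraries. With a stricter gate the log2 ratio of the summed members in artery went from 0.30 to 0.20 at 6 h and from −0.15 to −0.33 at 30 h against control. The causes of these shifts were not tested.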

Other observations

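Barcodes that passed the limits on genes and mitochondrial UMIs but held no Pecam1 and no Cdh5 UMI numbered 123 (control), 118 (6 h) and 94 (30 h). The members summed to 249 CPM (210 to 294), 304 CPM (266 to 346) and 232 CPM (196 to 272) in them. These levels were below those of ECs in each library. In controls they were also below the 347 CPM (301 to 398) of LEC, while their intervals overlapped those of LEC at 6 h (385 CPM, 329 to 448) and at 30 h (282 CPM, 239 to 330).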
